A study of Mus musculus with 36 samples.

Results

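Perisynaptic Schwann cells, hereafter S100β-GFP+;NG2-dsRed+ PSCs, were compared with NG2-dsRed+ cells that lack the S100β-GFP signal, across every gene with enough counts. Members were the libraries whose label gives the cell type NG2DsRed+/S100GFP+ (9 libraries) or NG2DsRed+ (10 libraries), that is 19 of the 27 libraries in the count table and of the 36 libraries that the labels name. Each library came from 1 mouse of a double-transgenic line, so both groups carried both transgenes: S100β-GFP, in which S100b regulatory sequence drives GFP, and NG2-dsRed, in which Cspg4 regulatory sequence drives dsRed. The mice were juvenile (postnatal day 15 onwards in the labels) and untreated, and cells were dissociated from the diaphragm, pectoralis, forelimb and hindlimb muscles and sorted on their fluorescence. The labels do not say whether a PSC library and an NG2-dsRed+ library came from the same mouse. S100β-GFP+ cells, which the study calls Schwann cells, were sorted from the same line as single-positive cells. They are given only as a reference (8 libraries), and their marker levels stand with the shared genes below. The study describes the NG2-dsRed+ sort as a mixture that holds pericytes and precursor cells, so it has no cell type of its own by design.

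PSCs are the non-myelinating glial cells that cap the nerve terminal at the neuromuscular junction, where they are known to sense transmitter and to help maintain and repair the synapse. Pericytes and vascular smooth muscle cells, together called mural cells, wrap small vessels, share a basement membrane with the endothelium and set vessel tone by contraction. NG2, the chondroitin sulfate proteoglycan encoded by Cspg4, is carried by both kinds of cell and by oligodendrocyte precursors of the central nervous system. The comparison therefore asks what differs, and what is held in common, between a glial population and a mixed one. The mixed one holds pericytes, and both were sorted by a reporter for the gene of this surface protein.

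The reporter genes came first, since the sort selected on them and their levels are a check of the labels and not a finding. Cspg4 (chromosome 9, 56865033 to 56899870, GRCm38) was at 503 to 965 CPM (median 718) in the 9 PSC libraries and at 487 to 889.9 CPM (median 667) in the 10 NG2-dsRed+ libraries, where CPM is counts per 1000000 counts after TMM normalization. S100b (chromosome 10, 76253853 to 76261159), which encodes a calcium-binding protein of glia and overlaps Dip2a on the opposite strand, was at 57.0 to 566 CPM (median 160.4) in PSCs and at 1.23 to 17.8 CPM (median 5.43) in NG2-dsRed+ cells. The Cspg4 ranges overlapped almost wholly and the S100b ranges not at all, as the labels require. The 250 bases before the annotated start of each reporter gene (RefSeq, GRCm38.p6) are shown because these 2 promoters define the populations, and they hold neither of the 2 motifs searched below.
Cspg4, chr9:56864854-56865103 (+ strand): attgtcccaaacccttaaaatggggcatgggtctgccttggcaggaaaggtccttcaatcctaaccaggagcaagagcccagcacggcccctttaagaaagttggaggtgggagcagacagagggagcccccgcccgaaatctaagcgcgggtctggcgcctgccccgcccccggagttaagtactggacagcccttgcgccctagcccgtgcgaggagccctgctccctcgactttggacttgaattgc
S100b, chr10:76253586-76253835 (+ strand): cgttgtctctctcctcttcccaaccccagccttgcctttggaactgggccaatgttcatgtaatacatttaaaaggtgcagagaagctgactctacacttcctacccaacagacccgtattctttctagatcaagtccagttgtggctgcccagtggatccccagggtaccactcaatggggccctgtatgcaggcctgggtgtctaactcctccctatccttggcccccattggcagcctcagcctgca

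A further pair of upstream sequences, 1 from each side of the comparison, carries the motifs searched in the gene groups that follow. The CArG box, to which serum response factor binds in genes of the contractile apparatus, is in capitals in Myl9, and ACAAAG, a core that Sox proteins bind, is in capitals in Dct. Both were searched on both strands in the 250 bases before each annotated start.
Myl9, chr2:156775214-156775463 (+ strand): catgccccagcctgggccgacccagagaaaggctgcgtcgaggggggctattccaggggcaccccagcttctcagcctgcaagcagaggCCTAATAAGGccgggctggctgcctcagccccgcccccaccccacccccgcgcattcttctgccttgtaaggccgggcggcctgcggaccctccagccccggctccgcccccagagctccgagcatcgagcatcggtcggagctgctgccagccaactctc
Dct, chr14:118052247-118052496 (- strand): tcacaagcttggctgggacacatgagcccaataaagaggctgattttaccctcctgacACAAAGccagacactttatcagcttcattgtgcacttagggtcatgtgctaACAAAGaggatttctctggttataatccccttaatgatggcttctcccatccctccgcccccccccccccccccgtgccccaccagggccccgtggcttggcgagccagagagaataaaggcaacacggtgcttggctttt
The CArG box of Myl9 begins 161 bases before the start, and the ACAAAG copies of Dct begin 192 and 141 bases before it. Over all 32851 promoters in the table, 1.47% held a CArG box and 16.5% held ACAAAG. A CArG box was in 3 of 24 promoters of the contractile list (Myl9, Srf and Vcl) and in 1 of 39 of the vasoactive list (Trpc6). It was in 4 of 20 of the Schwann lineage transcription factors, all of them annotated starts of Egr2. It was in 0 of 18 of the pericyte, 0 of 18 of the Schwann cell surface and 0 of 26 of the myelin list. Of the genes with a box, Egr2, Vcl and Srf were shown to differ by less than 2-fold. Srf was also called higher in NG2-dsRed+ cells, a call lost in 12 of 27 alternatives. ACAAAG was in 4 of the 12 matched promoters of the genes with the largest differences in favour of PSCs (Chl1, Col20a1, Dct and Gm20754), and in 0 of 9 of those in favour of NG2-dsRed+ cells. In the lists it was in 5 of 26 myelin promoters (19.2%, near the share of all promoters), 4 of 18 of the Schwann cell surface list, 2 of 20 of the Schwann lineage factors, 2 of 24 contractile, 3 of 39 vasoactive and 0 of 18 pericyte promoters. These are matches of letters in a window, described without a test.

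The libraries held between 5334916 and 9592875 counts on genes in PSCs and between 5712256 and 7918320 in NG2-dsRed+ cells, so a gene at 1 CPM rests on only a few counts in a library. Lars2, Gm23935 and Gm15564 took 3.64% to 36.6% of the counts of a PSC library and 12.5% to 40.0% of an NG2-dsRed+ library. PSC library 18 had counts on 14616 genes and the other PSC libraries on 20203 to 22533. Markers of endothelium summed to 275 to 1168 CPM (median 569) in PSC libraries and 2453 to 6138 CPM (median 5038) in NG2-dsRed+ libraries, and 16 of 16 were higher in NG2-dsRed+ cells, as were 23.1% of all genes tested (median log2 fold change -2.99). Fibroblast markers summed to 1114 to 3441 CPM (median 1743) in PSC libraries and 3589 to 23222 CPM (median 10653) in NG2-dsRed+ libraries, highest in libraries 28 and 35, and 15 of 15 were higher in NG2-dsRed+ cells (median -2.84). The part of these other cells in the differences described below was not tested. Of 14 markers of macrophages and leukocytes 7 were higher in NG2-dsRed+ cells and 1, Lyz2 (25.5 to 566 CPM (median 123) in PSCs and 7.10 to 54.4 CPM (median 23.3) in NG2-dsRed+ cells), in PSCs (median -1.30), and their sum, to which Lyz2 contributed most in PSCs, was 39.7 to 573 CPM (median 132) in PSC libraries and 19.3 to 150.2 CPM (median 56.5) in NG2-dsRed+ libraries. Markers of satellite cells (0 of 10 higher in PSCs and 1, Des, higher in NG2-dsRed+ cells) and of erythroid cells (0 and 0 of 7) were mostly not called. In bulk RNA fewer cells of a type and less RNA per cell cannot be told apart.

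**Figure D1:**
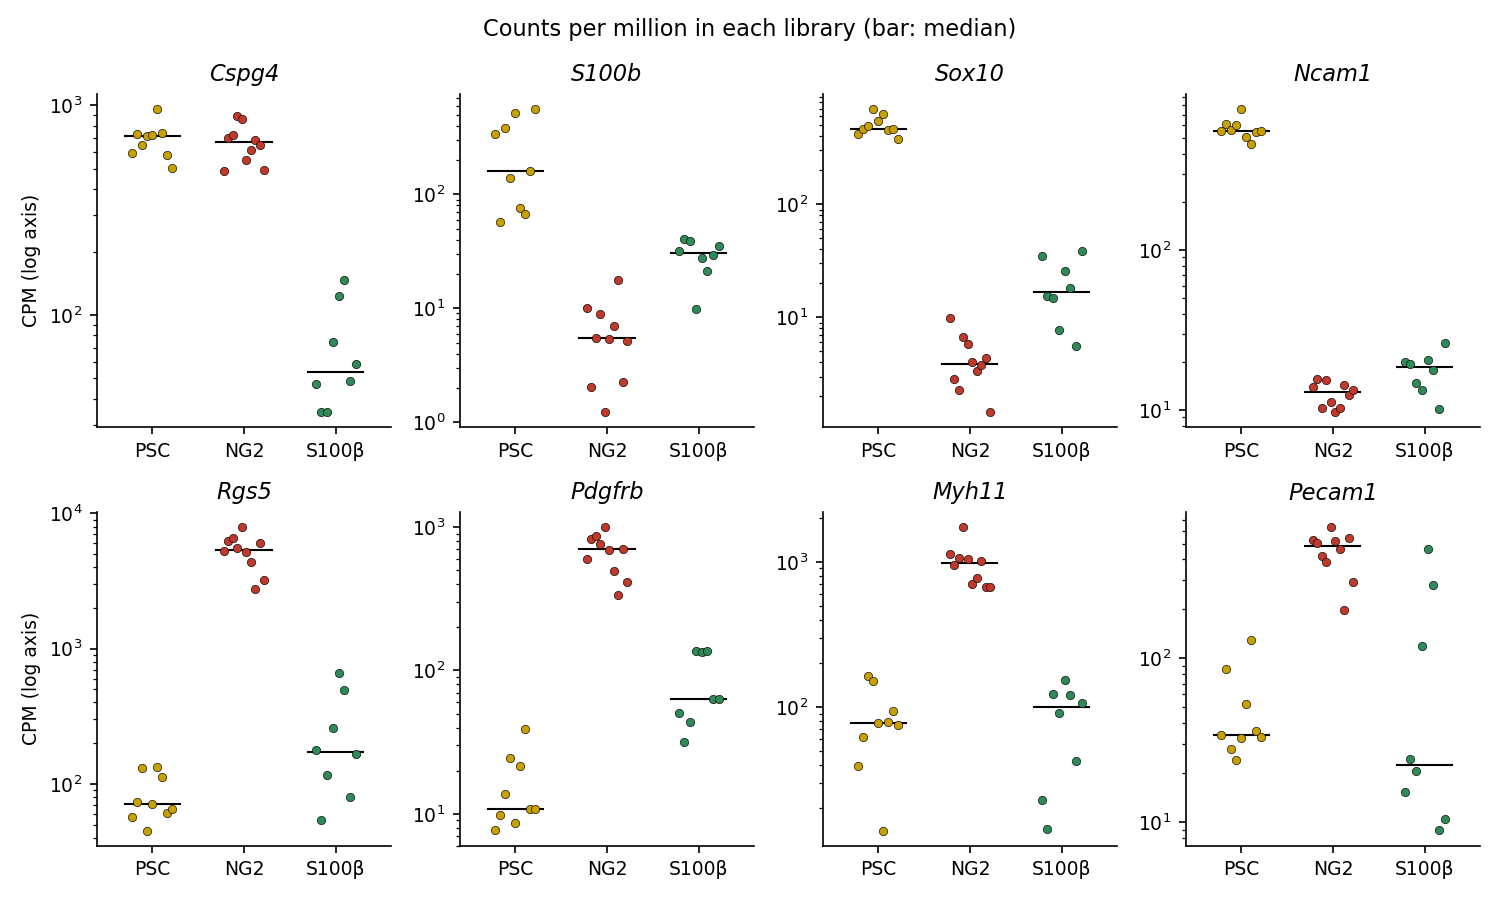
CPM (log axis) of 8 marker genes in each library of PSCs (n = 9), NG2-dsRed+ cells (n = 10) and S100β-GFP+ cells (n = 8), with 1 point per library and a bar at the group's median. Cspg4 lies at the same height in PSCs and NG2-dsRed+ cells, S100b, Sox10 and Ncam1 lie above all NG2-dsRed+ libraries in all PSC libraries, and Rgs5, Pdgfrb, Myh11 and Pecam1 are lower.

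More genes differed between the populations than could be shown to be alike. Of 15330 genes tested, 6743 (44%) differed at an adjusted p under 0.05 by edgeR's quasi-likelihood test, 3197 of them (20.9%) higher in PSCs and 3546 (23.1%) higher in NG2-dsRed+ cells. A separate test, of whether the difference is smaller than 2-fold in either direction, was passed by 5533 genes (36.1%), of which 850 (5.54% of all tested) also differed significantly. The remaining 3904 genes (25.5%) passed neither test and are not resolved. The median log2 fold change over all genes tested was 0.02. Log2 fold changes here are always PSCs minus NG2-dsRed+ cells, so that positive values are higher in PSCs. Counts in the lists and families below are to be read beside these shares of 20.9%, 23.1% and 36.1%.

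The tails of the distribution were unequal. Differences over 4-fold were more numerous in favour of NG2-dsRed+ cells (1434 genes, 9.35%) than of PSCs (906 genes, 5.91%). Over 16-fold the order was the other way, with 302 genes (1.97%) higher in PSCs and 147 (0.959%) higher in NG2-dsRed+ cells. Over 64-fold there were 108 genes (0.705%) against 7 (0.0457%). The ranges of the libraries did not overlap for 778 genes with every PSC library above every NG2-dsRed+ library (5.08%) and for 1354 genes in the other order (8.83%).

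**Figure D2:**
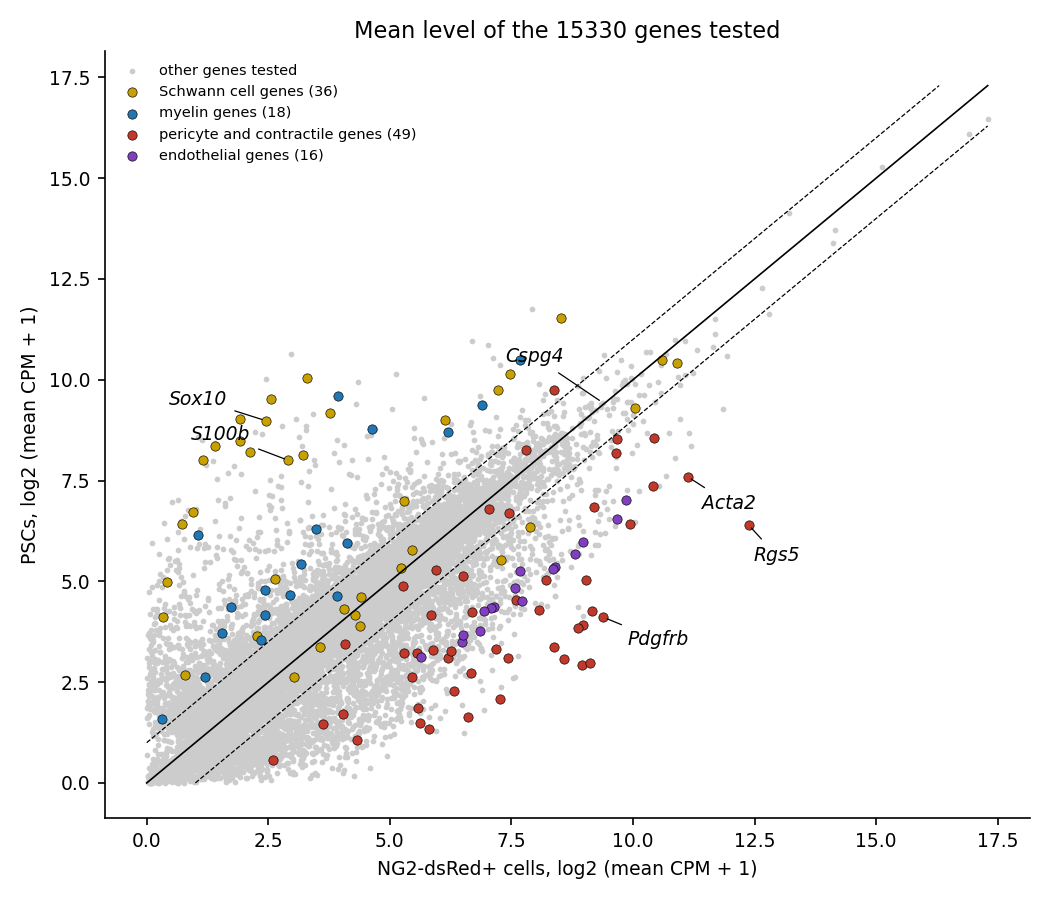
Mean level of the 15330 genes tested, as log2 (mean CPM + 1), in NG2-dsRed+ cells (horizontal) and PSCs (vertical), with the members of 4 groups of lists in colour. The solid line marks equal levels and the dashed lines a 2-fold difference. Schwann cell and myelin genes lie mostly above the lines, pericyte, contractile and endothelial genes below, and Cspg4 close to the line of equality.

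Some transcription factors of the Schwann cell lineage were far higher in PSCs. Of 17 listed factors 13 had enough counts to be tested, and 6 were higher in PSCs and 2 in NG2-dsRed+ cells (median log2 fold change 0.34). Sox10 (chromosome 15, 79154908 to 79165240), the factor that specifies and maintains Schwann cells, was at 379 to 703 CPM (median 467) in PSCs and at 1.46 to 9.79 CPM (median 3.91) in NG2-dsRed+ cells. Every PSC library was above every NG2-dsRed+ library (log2 fold change 6.83, standard error 0.37, adjusted p = 6.96e-15). Pou3f1, which drives the step from promyelinating to myelinating Schwann cell, reached 570.4 to 3179 CPM (median 744) in PSCs against 5.35 to 16.4 CPM (median 7.77) in NG2-dsRed+ cells (log2 fold change 6.88, standard error 0.46, adjusted p = 4.71e-13). Foxd3, a neural crest factor, was at 139 to 436 CPM (median 229) and 0.485 to 2.69 CPM (median 1.00) (log2 fold change 7.66, standard error 0.43, adjusted p = 1.06e-14). Sox2, an inhibitor of myelination, had means of 30.4 ± 10.2 against 0.340 ± 0.381 CPM (± SD, n = 9 and n = 10 here and below, log2 fold change 6.40), and Pou3f2, a relative of Pou3f1, 16.3 ± 5.65 against 0.258 ± 0.384 CPM (log2 fold change 5.90, and 6.68 without NG2-dsRed+ library 28). None of these 5 genes had overlapping groups. Zeb2, a repressor needed for Schwann cell maturation, was also separated, at 863 ± 231 against 149.5 ± 33.2 CPM, log2 fold change 2.53.

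Other factors of the same list were not higher in PSCs. Jun, which runs the repair programme of injured Schwann cells and responds to dissociation in many cells, had 1440.1 ± 471 against 1555 ± 348 CPM, and Egr2, the master regulator of myelination, 54.1 ± 14.1 against 42.9 ± 10.3 CPM. Both were shown to differ by less than 2-fold (adjusted p = 8.56e-05 for Jun and 0.00383 for Egr2 by the test against 2-fold in edgeR). Nab2, a corepressor of Egr2, also met this test, at 18.8 ± 6.78 against 15.6 ± 3.60 CPM. Its relative Nab1 was higher in NG2-dsRed+ cells, at 45.4 ± 9.59 against 155 ± 24.7 CPM, log2 fold change -1.78, without overlap of the groups. Id4 and Sox8 were not resolved.

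Schwann cell surface and cytoplasmic genes were the broadest glial group. Of 23 tested (of 25 listed), 17 were higher in PSCs and 1 in NG2-dsRed+ cells, and the median log2 fold change was 2.87 against 0.02 over all genes. S100b, whose reporter the sort selected, is on this list and so in the 17, the median and the sum given below. Among receptors, Erbb3, through which Schwann cells receive axonal neuregulin, was at 165 to 604 CPM (median 310.2) in PSCs and 1.22 to 4.96 CPM (median 2.30) in NG2-dsRed+ cells (log2 fold change 7.00, standard error 0.39, adjusted p = 9.95e-15). Lpar1, a receptor for lysophosphatidic acid, had 509.5 ± 83.0 against 69.5 ± 47.6 CPM, log2 fold change 2.87. Ngfr, the low-affinity neurotrophin receptor of immature and repair Schwann cells, was at 4.84 to 16.8 CPM (median 7.65) and 3.51 to 20.5 CPM (median 10.9), overlapping ranges that were not resolved (log2 fold change -0.21, standard error 0.44, adjusted p = 0.729, 95% interval -1.12 to 0.69).

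Adhesion genes of this list gave the largest group of non-overlapping ranges, 6 of 9 in favour of PSCs, against 5.08% of all genes tested. Ptprz1, a receptor phosphatase that carries chondroitin sulfate, was at 266 to 931 CPM (median 763) against 2.67 to 8.50 CPM (median 5.06) (log2 fold change 7.24, standard error 0.39, adjusted p = 6.86e-15). Ncam1, the neural cell adhesion molecule, was at 462 to 764 CPM (median 556) against 9.73 to 15.6 CPM (median 12.9) (log2 fold change 5.50, standard error 0.17, adjusted p = 7.78e-20). Its relatives L1cam (297 ± 175 against 3.36 ± 2.03 CPM, log2 fold change 6.45) and Chl1 (524 ± 179 against 2.78 ± 1.78 CPM, log2 fold change 7.55) moved with it. Dag1, the dystroglycan that binds laminin, was at 2966 ± 495 against 364 ± 40.1 CPM, log2 fold change 3.03, and Cdh19, a cadherin of the Schwann lineage, at 280.3 ± 126 against 8.24 ± 3.80 CPM, log2 fold change 5.08. In contrast Cdh2 (N-cadherin, 17.1 ± 4.56 against 18.6 ± 3.89 CPM) and Itgb4 (integrin beta 4, 39.1 ± 13.5 against 36.3 ± 8.64 CPM) were shown to differ by less than 2-fold (adjusted p = 0.000121 and 0.00728 in edgeR). Itga6, the partner of Itgb4 in laminin binding, was higher in NG2-dsRed+ cells (80.5 ± 20.0 against 236 ± 48.1 CPM, log2 fold change -1.55), without overlap.

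Secreted and cytoplasmic members followed the same direction for 6 of 7 genes. S100b, whose reporter the sort selected, and Gap43 are among the 6. Fabp7, the fatty acid binding protein of immature glia, had 104 ± 34.8 against 0.926 ± 0.683 CPM, log2 fold change 6.80, and Matn2, a matrilin made by Schwann cells, 1129.6 ± 242 against 176 ± 125 CPM, log2 fold change 2.68. Dhh, the hedgehog ligand of Schwann cells, had 32.2 ± 12.3 against 5.24 ± 4.03 CPM, log2 fold change 2.61, while its receptor Ptch1 (60.4 ± 16.9 against 71.6 ± 20.2 CPM) was shown to differ by less than 2-fold. The call for the growth cone gene Gap43 rests on 1 library: its log2 fold change was 2.81 with and 0.67 without PSC library 18 (adjusted p = 0.265 by edgeR). Kcnj10, the inward rectifier by which glia take up potassium, was at 51.7 to 141 CPM (median 81.8) in PSCs and 0 to 1.84 CPM (median 0.519) in NG2-dsRed+ cells. The summed level of the whole list was 7663 to 11004 CPM (median 8568) in PSC libraries and 1145 to 5471 CPM (median 1698) in NG2-dsRed+ libraries. The highest of these NG2-dsRed+ libraries was library 28, in which Apod, a lipocalin that fibroblasts also make, was at 4126 CPM. Apod was not called (log2 fold change -0.74, standard error 0.45, adjusted p = 0.181). Without PSC library 18 it was, with a log2 fold change of -1.19 (adjusted p = 0.0194 in edgeR), and without NG2-dsRed+ library 28 its log2 fold change was -0.14.

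Myelin genes were higher in PSCs almost without exception, 17 of 18 tested, with a median log2 fold change of 2.55. PSCs do not form myelin, yet transcripts of compact myelin proteins were plentiful in them. Pmp22, a membrane protein of compact myelin, was at 1310.2 to 1626 CPM (median 1455) in PSCs and 129 to 355 CPM (median 170.2) in NG2-dsRed+ cells (log2 fold change 2.83, standard error 0.18, adjusted p = 2.05e-13). Mbp, which holds the inner faces of the myelin membrane together, had 413 ± 86.0 against 71.9 ± 58.1 CPM, log2 fold change 2.52. Genes for the lipids of myelin included Gal3st1, the last enzyme of sulfatide synthesis (70.0 ± 50.6 against 1.07 ± 0.772 CPM, log2 fold change 5.98), and Ugt8a, the enzyme before it (10.7 ± 5.51 against 4.07 ± 3.58 CPM, log2 fold change 1.39). Drp2, a scaffold of the outer Schwann cell membrane, was the 1 member that was not called (log2 fold change 0.77, standard error 0.33, adjusted p = 0.0630), and it was called without PSC library 18 or 20 or NG2-dsRed+ library 2 or 9 (log2 fold changes 0.87 to 1.02). The list summed to 3754 to 4960.0 CPM (median 3976) in PSC libraries and 289.8 to 1199 CPM (median 386) in NG2-dsRed+ libraries, with NG2-dsRed+ library 2 the highest of its group.

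Because NG2 gives its name to the oligodendrocyte precursors of the brain, their genes were listed as well. Of 19 listed, 12 were tested, 8 of them higher in PSCs and 2 in NG2-dsRed+ cells (median log2 fold change 4.13). Sox10 and Ptprz1, which are also on the Schwann cell lists above, are among the 8. Cspg4, whose reporter the sort selected, is on the list too. Nkx2-2, a homeodomain factor of the oligodendrocyte lineage, had 10.2 ± 2.87 against 0.0964 ± 0.169 CPM (log2 fold change 6.41, and 7.01 without NG2-dsRed+ library 2). C1ql1, a secreted C1q-domain protein, had 31.1 ± 9.54 against 0.189 ± 0.228 CPM, log2 fold change 7.20, and Gpr17, a receptor of differentiating precursors, 21.1 ± 15.5 against 0.857 ± 0.749 CPM, log2 fold change 4.61. Pdgfra, the PDGF receptor that defines these precursors in the brain and fibroblasts in muscle, went the other way, at 5.08 to 24.4 CPM (median 10.1) in PSCs and 16.2 to 246 CPM (median 84.8) in NG2-dsRed+ cells (log2 fold change -3.03, standard error 0.39, adjusted p = 2.53e-07). Olig2, a defining factor of the lineage, was at or near 0 in both groups (mean 0 and 0.0175 CPM) and was not tested.

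The 15 genes with the largest differences in favour of PSCs were drawn from 538 that differed, had no overlap between groups and had a mean of at least 20 CPM in PSCs. Their log2 fold changes ran from 7.55 to 9.37. Besides Chl1 and Foxd3, they included Acsbg1, an acyl-CoA synthetase of neural and steroidogenic tissue, at 187 to 629 CPM (median 378) in PSCs and 0.178 to 3.40 CPM (median 1.09) in NG2-dsRed+ cells (log2 fold change 8.41, standard error 0.41, adjusted p = 1.26e-15). Unc80, a subunit of the sodium leak channel complex, was at 149.6 to 570.0 CPM (median 396) and 0.141 to 2.59 CPM (median 1.11), and Prima1, which anchors acetylcholinesterase in the membrane, at 54.0 to 296 CPM (median 106) and 0 to 0.876 CPM (median 0.474). Bche, the butyrylcholinesterase, was in the same set (log2 fold change 7.84), as was Col20a1, a collagen that has no fibril of its own, at 1085 to 2137 CPM (median 1399.6) against 2.91 to 20.0 CPM (median 5.46). Dhrs2, a short-chain dehydrogenase, had 49.9 ± 14.9 against 0.189 ± 0.235 CPM, log2 fold change 7.88, and Slitrk3, a synaptic adhesion gene, 128 ± 53.5 against 0.562 ± 0.494 CPM, log2 fold change 7.82.

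Transcripts with little annotation made up a part of this set. Gm12688, a lincRNA, was at 59.4 to 128 CPM (median 77.8) in PSCs and 0 to 1.10 CPM (median 0.162) in NG2-dsRed+ cells, and Gm20754, another lincRNA, at 11.0 to 39.4 CPM (median 26.6) and 0 to 0.304 CPM (median 0). Gm2115, annotated as coding, was at 190.2 to 859 CPM (median 273) and 0.526 to 2.98 CPM (median 1.78). Gm44439 lies within Chl1 on the same strand, so its counts cannot be told from those of Chl1. It was at 18.8 to 32.7 CPM (median 25.7) in PSCs and had 2 counts in NG2-dsRed+ cells, both in library 28, so the size of its fold depends on that library. Dct, an enzyme of melanin synthesis that early glia can also express, had the largest value, 9.37 (10.31 without NG2-dsRed+ library 2), with a wide range of 6.58 to 119 CPM (median 76.9) among PSC libraries and 5 counts over 3 NG2-dsRed+ libraries. It was lowest in PSC libraries 6, 23 and 31 (10.3, 6.58 and 8.01 CPM). S100b was lowest in the same PSC libraries (57.0, 75.5 and 67.8 CPM). What sets them apart was not tested. Of the melanocyte list 5 of 10 genes were tested, 3 of them higher in PSCs and 1, Kit, in NG2-dsRed+ cells. Tyr, the enzyme that defines pigment cells, had means of 0.0116 and 0.0976 CPM and was not tested.

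**Figure D3:**
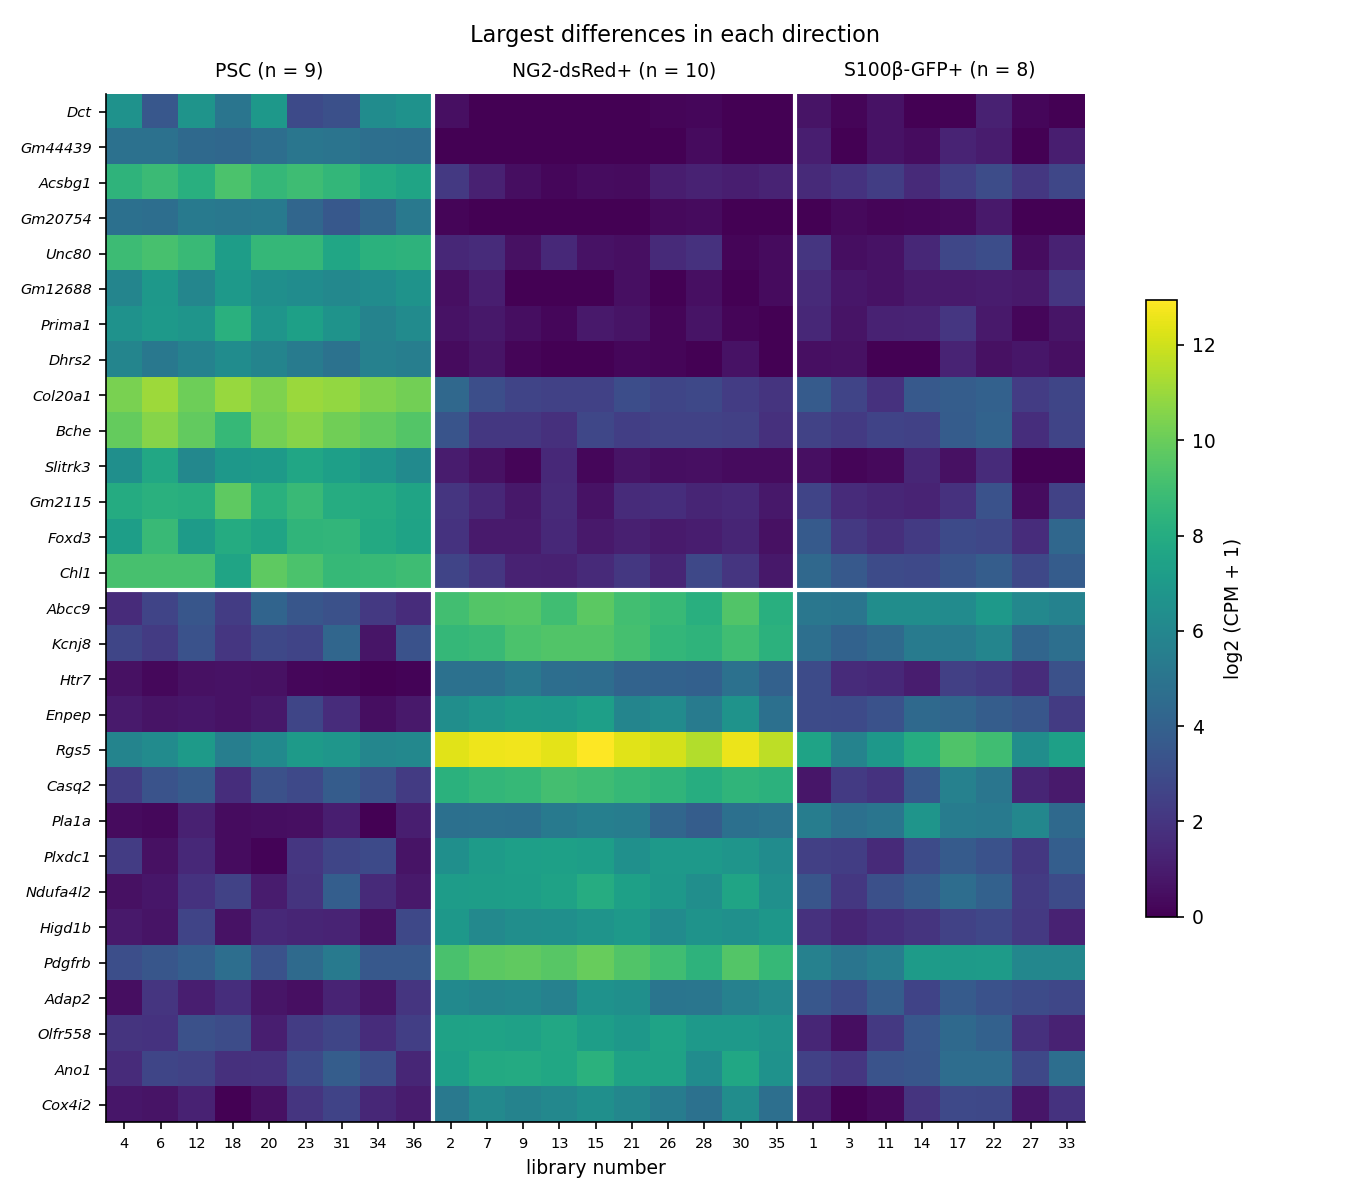
Level, as log2 (CPM + 1), of 14 of the 15 genes with the largest differences in favour of PSCs (upper rows) and of the 15 in favour of NG2-dsRed+ cells (lower rows) in each library, with columns grouped by cell type and numbered by library. The upper block is bright in all 9 PSC libraries and dark in all 10 NG2-dsRed+ libraries, and the lower block is the reverse, while the 8 S100β-GFP+ libraries are dark in most upper rows and intermediate in many lower rows.

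The mural side was as marked. Of 23 pericyte genes tested (of 25 listed) 22 were higher in NG2-dsRed+ cells and 0 in PSCs, and the median log2 fold change was -4.71. In 21 of the 23 every NG2-dsRed+ library was above every PSC library, as in 8.83% of all genes tested. Rgs5 (chromosome 1, 169655501 to 169695813), a regulator of G protein signalling that marks pericytes, was at 2775 to 7921 CPM (median 5400.0) in NG2-dsRed+ cells and 45.2 to 133 CPM (median 70.7) in PSCs (log2 fold change -6.00, standard error 0.44, adjusted p = 3.44e-12). Pdgfrb (chromosome 18, 61045150 to 61085061), the receptor by which endothelial PDGF-B recruits pericytes, was at 335 to 999 CPM (median 702) and 7.65 to 38.9 CPM (median 10.8) (log2 fold change -5.37, standard error 0.38, adjusted p = 1.64e-12). Kcnj8 and Abcc9, the pore and the sulfonylurea receptor of the vascular ATP-sensitive potassium channel, had the largest differences of this list. Abcc9 was at 288 to 828 CPM (median 527) in NG2-dsRed+ cells and 1.97 to 17.3 CPM (median 5.34) in PSCs, and Kcnj8 at 316 to 686 CPM (median 471) and 0.648 to 18.3 CPM (median 5.44) (log2 fold changes -6.32 and -6.21). Transcription factors of the list were lower in level and all in the same direction, among them Tbx18 (1.08 ± 0.857 against 19.0 ± 6.39 CPM, log2 fold change -4.07), Foxs1 (1.80 ± 1.60 against 48.3 ± 8.42 CPM, log2 fold change -4.71) and Ebf1 (18.5 ± 6.33 against 268 ± 41.5 CPM, log2 fold change -3.86). Mcam, an adhesion molecule of mural and endothelial cells, was the exception, at 202 to 532 CPM (median 281) in PSCs and 100.4 to 318 CPM (median 222) in NG2-dsRed+ cells (log2 fold change 0.46, standard error 0.29, adjusted p = 0.209).

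The pericyte list summed to 393 to 847 CPM (median 554) in PSC libraries and 6286 to 15622 CPM (median 10889.5) in NG2-dsRed+ libraries, and Mcam, the exception, made up 39.6% to 66.0% (median 51.5%) of the sum in PSC libraries and 1.60% to 2.64% (median 2.12%) in NG2-dsRed+ libraries. Without Mcam, a sum formed after its values were seen, the list was at 190.5 to 421 CPM (median 218) and 6185 to 15304 CPM (median 10695). With Mcam the lowest NG2-dsRed+ library was above the highest PSC library in the sum, as for the endothelial sum given above. The median log2 fold change of the endothelial list (-2.99) was smaller in size than that of the pericyte list (-4.71).

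Genes of the contractile apparatus were higher in NG2-dsRed+ cells for 22 of 26 tested and higher in PSCs for 1, with a median log2 fold change of -2.41. Acta2, the smooth muscle actin, was at 1388 to 3787 CPM (median 2173) in NG2-dsRed+ cells and 60.6 to 448 CPM (median 196) in PSCs (log2 fold change -3.54, standard error 0.35, adjusted p = 2.02e-09). Myh11, the smooth muscle myosin heavy chain, was at 668 to 1733 CPM (median 984) and 14.1 to 164 CPM (median 77.8) (log2 fold change -3.54, standard error 0.41, adjusted p = 4.07e-08). Neither gene had overlapping groups. Casq2, a calcium store protein of the sarcoplasmic reticulum, had the largest difference of the list (7.38 ± 3.58 against 384 ± 81.6 CPM, log2 fold change -5.69), and Mylk, the kinase that activates smooth muscle myosin, had 32.0 ± 13.9 against 525 ± 115 CPM, log2 fold change -4.04. Myl9, whose upstream sequence is shown above, had 164 ± 115 against 1365 ± 274 CPM, log2 fold change -3.06. Myocd, the coactivator of serum response factor that defines smooth muscle, had 2.25 ± 3.54 against 15.3 ± 3.81 CPM (log2 fold change -2.81, and -3.62 without PSC library 18). Csrp1, a LIM-domain protein, was the 1 member higher in PSCs (864 ± 667 against 331 ± 103 CPM, log2 fold change 1.39), and Vcl (vinculin, 109 ± 55.4 against 131 ± 46.2 CPM) was shown to differ by less than 2-fold.

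Receptors, effectors and channels of vessel tone went with this apparatus. Of 36 vasoactive genes tested 31 were higher in NG2-dsRed+ cells and 2 in PSCs (median log2 fold change -3.40). Among receptors, Agtr1a for angiotensin II had 2.83 ± 1.05 against 88.7 ± 16.6 CPM, log2 fold change -4.97, Ednra for endothelin 3.87 ± 2.31 against 79.2 ± 16.6 CPM, log2 fold change -4.34, and Htr7 for serotonin, which is not on the list but among the 15 largest, 0.289 ± 0.207 against 23.1 ± 7.31 CPM, log2 fold change -6.20. Adrenergic receptors divided between the cell types. Adra2b was at 7.61 to 26.8 CPM (median 17.6) in NG2-dsRed+ cells and 0 to 0.350 CPM (median 0.143) in PSCs, and Adra1d at 7.15 to 23.9 CPM (median 15.8) and 0 to 0.631 CPM (median 0.286). Adra1b was the reverse, at 0 to 1.78 CPM (median 0.413) in NG2-dsRed+ cells and 8.95 to 39.3 CPM (median 33.6) in PSCs (log2 fold change 5.64, standard error 0.42, adjusted p = 5.03e-12).

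Downstream of these receptors, Gucy1a1 and Gucy1b1, the subunits of the guanylate cyclase that senses nitric oxide, were both higher in NG2-dsRed+ cells. Gucy1a1 had 19.5 ± 7.59 against 465 ± 90.1 CPM, log2 fold change -4.58, and Gucy1b1 had 5.07 ± 2.23 against 184 ± 58.4 CPM, log2 fold change -5.19. Mrvi1, a substrate of the cyclic GMP kinase, had 4.74 ± 2.79 against 115 ± 29.0 CPM, log2 fold change -4.60, and Pde3a, which breaks down cyclic AMP, 7.82 ± 4.41 against 199 ± 55.0 CPM, log2 fold change -4.66. Of the 10 channels tested 10 were higher in NG2-dsRed+ cells. Ano1, the calcium-activated chloride channel of smooth muscle, was at 78.3 to 304 CPM (median 193) against 1.58 to 13.0 CPM (median 4.90) (log2 fold change -5.20, standard error 0.45, adjusted p = 1.24e-10). Rgs2, which ends signalling by Gq-coupled receptors, was higher in PSCs (126 ± 44.4 against 57.4 ± 25.2 CPM, log2 fold change 1.13).

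The Notch pathway, through which endothelium and mural cells signal to each other, was also higher in NG2-dsRed+ cells, for 13 of 16 genes tested (median log2 fold change -2.57). Notch3, the receptor of mural cells, was at 329.6 to 899.5 CPM (median 588) in NG2-dsRed+ cells and 8.99 to 39.3 CPM (median 17.4) in PSCs (log2 fold change -4.96, standard error 0.38, adjusted p = 1.05e-11). Heyl, one of its targets, had 9.04 ± 3.90 against 144 ± 53.9 CPM, log2 fold change -3.99. The ligand Jag1 had 46.5 ± 9.73 against 114 ± 30.9 CPM, log2 fold change -1.29. Dll4, a mainly endothelial ligand, had 10.6 ± 8.40 against 98.8 ± 42.6 CPM, log2 fold change -3.22, and Notch4, a mainly endothelial receptor, 13.5 ± 5.57 against 100.4 ± 28.5 CPM, log2 fold change -2.89. Hes1, a target found in many cell types, was at 989 ± 724 against 889.7 ± 755 CPM (95% interval of the log2 fold change -1.12 to 1.43). The endothelial markers that move with Notch4 and Dll4 are given above.

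The other genes among the 15 largest differences in favour of NG2-dsRed+ cells, which came from 966 candidates, are known from several settings. Higd1b (2.08 ± 2.12 against 96.4 ± 19.3 CPM, log2 fold change -5.49), Ndufa4l2 (3.20 ± 4.09 against 152 ± 50.7 CPM, log2 fold change -5.62, and -6.37 without PSC library 31) and Cox4i2 (1.53 ± 1.56 against 54.7 ± 21.1 CPM, log2 fold change -5.19) encode mitochondrial proteins tied to low oxygen. Higd1b, Ndufa4l2 and Cox4i2 are members of the pericyte list and are in its counts above. Ndufa4l2 overlaps Shmt2 on the opposite strand. Enpep, the aminopeptidase that cleaves angiotensin II, was at 26.7 to 160.4 CPM (median 90.4) in NG2-dsRed+ cells and 0.389 to 5.48 CPM (median 0.765) in PSCs (log2 fold change -6.09, and -6.69 without PSC library 23). Olfr558, an olfactory receptor gene expressed in vascular smooth muscle, was at 105 to 219 CPM (median 162) and 1.15 to 8.14 CPM (median 3.91). Plxdc1 had 2.49 ± 2.40 against 122 ± 30.9 CPM, log2 fold change -5.62, Adap2 1.46 ± 1.07 against 60.7 ± 21.1 CPM, log2 fold change -5.37, and Pla1a, a phospholipase, 0.586 ± 0.469 against 29.9 ± 10.7 CPM, log2 fold change -5.63.

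**Figure D4:**
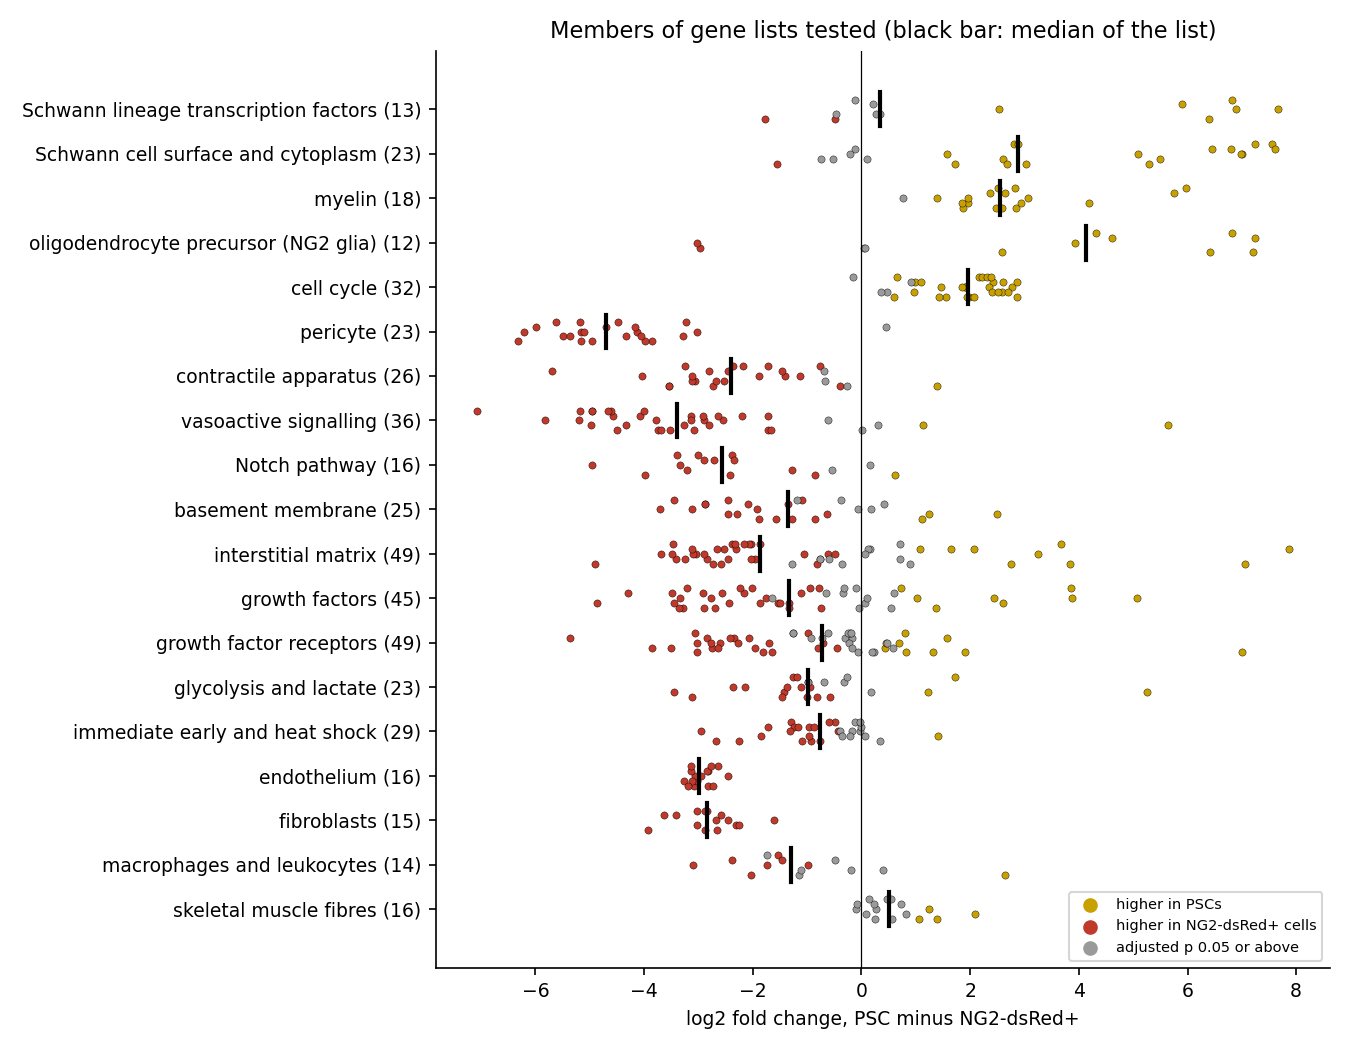
Log2 fold change (PSCs minus NG2-dsRed+ cells) of each tested member of 19 gene lists, with 1 point per gene, coloured by the direction of its call, and a black bar at the median of the list. Lists of Schwann cells, myelin, oligodendrocyte precursors and the cell cycle lie to the right of 0, and pericyte, contractile, vasoactive, Notch, endothelial and fibroblast lists to the left.

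Extracellular matrix genes were more often higher in NG2-dsRed+ cells, with exceptions on the PSC side. Of 25 basement membrane genes 17 were higher in NG2-dsRed+ cells and 3 in PSCs (median log2 fold change -1.35), and of 49 interstitial matrix genes 30 and 9 (median -1.87). Interstitial collagens had the most members on the PSC side, 7 of 19 against 11, and laminins (0 against 6 of 9) and elastic fibre genes (0 against 9 of 14) had none. Col4a1, of the main type IV collagen, had 1527 ± 259 against 3886 ± 571 CPM, log2 fold change -1.35, and its partner Col4a2 942 ± 118 against 2008 ± 319 CPM, log2 fold change -1.09. Col4a4 went the other way (80.0 ± 18.6 against 14.3 ± 4.52 CPM, log2 fold change 2.49). Laminins Lama4 (369.5 ± 90.8 against 278 ± 46.1 CPM) and Lamc1 (629 ± 276 against 556 ± 114 CPM) were shown to differ by less than 2-fold, whereas Lama2 (65.9 ± 27.6 against 323 ± 154 CPM, log2 fold change -2.29) and Lama5 (13.9 ± 10.2 against 152 ± 41.9 CPM, log2 fold change -3.45) were higher in NG2-dsRed+ cells. Agrn, the agrin that organises acetylcholine receptors when it comes from nerve, was higher in PSCs (296 ± 73.4 against 137 ± 24.9 CPM, log2 fold change 1.11), as was Nid2 (243 ± 148 against 102 ± 32.5 CPM, log2 fold change 1.25).

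Among interstitial genes, Postn, a matricellular protein, was at 2043 to 4774 CPM (median 3489) in PSCs and 63.1 to 751 CPM (median 180.0) in NG2-dsRed+ cells (log2 fold change 3.85, standard error 0.34, adjusted p = 1.41e-10). Besides Col20a1, the collagens Col11a1 (272 ± 135 against 28.6 ± 35.5 CPM, log2 fold change 3.25) and Col27a1 (255 ± 50.6 against 17.6 ± 6.04 CPM, log2 fold change 3.85) were on the PSC side. Col9a3 (82.9 ± 86.1 against 0.604 ± 0.640 CPM, log2 fold change 7.06) was too, and it was at 6.46 without PSC library 31. That library stood apart by cartilage genes, and without it the log2 fold change of Col2a1 went from 5.63 to -1.13 (adjusted p = 0.164 by edgeR), and that of Acan, the aggrecan of cartilage, from 3.23 to -2.25. Col6a3, of the microfibrillar type VI collagen, was higher in NG2-dsRed+ cells (72.4 ± 40.0 against 689.6 ± 177 CPM, log2 fold change -3.25), as were the fibronectin gene Fn1 (60.8 ± 51.4 against 503 ± 248 CPM, log2 fold change -3.05) and the elastin gene Eln (78.1 ± 57.7 against 406 ± 171 CPM, log2 fold change -2.38). Dcn, a proteoglycan and one of the fibroblast markers summed above, had 328 ± 86.6 against 2344 ± 1537 CPM, log2 fold change -2.84. Aspn, a small proteoglycan that overlaps Cenpp, had 16.8 ± 8.30 against 504 ± 68.9 CPM, log2 fold change -4.91.

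Receptors for this matrix differed too. Of 24 integrin genes tested 4 were higher in PSCs and 14 in NG2-dsRed+ cells. Itga2, a subunit of a collagen receptor, had 95.9 ± 21.9 against 3.94 ± 2.16 CPM, log2 fold change 4.59. The other genes of the PSC side encode Itgav (140.2 ± 45.9 against 63.7 ± 14.3 CPM, log2 fold change 1.14) and its partners Itgb3 (120.1 ± 48.5 against 15.9 ± 12.3 CPM, log2 fold change 2.92) and Itgb8 (128 ± 45.0 against 5.81 ± 1.41 CPM, log2 fold change 4.45). Itga7, the laminin receptor of contractile cells, had 19.0 ± 6.22 against 214 ± 40.7 CPM, log2 fold change -3.49, and Itgb1, the common beta subunit, 637 ± 102 against 1065 ± 144 CPM, log2 fold change -0.74. Of the matrix proteases of the ADAMTS family 14 of 22 were higher in NG2-dsRed+ cells, led by Adamts4 (20.8 ± 10.6 against 276 ± 100.1 CPM, log2 fold change -3.73), and 2, Adamts20 (55.2 ± 10.8 against 1.95 ± 1.01 CPM, log2 fold change 4.80) and Adamts5 (179.9 ± 32.2 against 47.7 ± 20.6 CPM, log2 fold change 1.92), in PSCs. Adamts1 (630.3 ± 132 against 769 ± 208 CPM) was shown to differ by less than 2-fold.

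Ligands and receptors of growth factor pathways were called on both sides. Of 45 ligands tested 8 were higher in PSCs and 27 in NG2-dsRed+ cells (median log2 fold change -1.34), and of 49 receptors 9 and 24 (median -0.72). Pdgfa, a ligand of PDGF receptor alpha, was at 499.7 to 1098 CPM (median 698) in PSCs and 38.8 to 66.4 CPM (median 52.3) in NG2-dsRed+ cells (log2 fold change 3.87, standard error 0.20, adjusted p = 1.81e-15), while its receptor Pdgfra and the related Pdgfrb were higher in NG2-dsRed+ cells. Ptn, the pleiotrophin that binds Ptprz1, was at 365 to 2025 CPM (median 1168) and 2.98 to 124 CPM (median 22.2) (log2 fold change 5.07, standard error 0.56, adjusted p = 1.45e-08), and so ligand and receptor were both higher in PSCs. Bmp6 (192 ± 90.5 against 35.4 ± 11.4 CPM, log2 fold change 2.44) and Btc, a ligand of epidermal growth factor receptors (5.05 ± 2.60 against 0.331 ± 0.369 CPM, log2 fold change 3.86), were also higher in PSCs. Kitl, the ligand of Kit, was higher in NG2-dsRed+ cells (33.4 ± 15.4 against 345 ± 77.3 CPM, log2 fold change -3.37), as was Kit. Igf2 (58.5 ± 43.2 against 594 ± 305 CPM, log2 fold change -3.34) and Vegfc (1.64 ± 1.34 against 32.5 ± 13.8 CPM, log2 fold change -4.30) were on that side too.

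Receptors that bind trophic factors of nerve included Ntrk2, the receptor of BDNF, which was higher in PSCs (284 ± 69.7 against 75.3 ± 12.8 CPM, log2 fold change 1.91). Of the 49 receptors 13 were shown to differ by less than 2-fold, as were 36.1% of all genes tested. Among them were Tgfbr1 (33.2 ± 11.4 against 38.2 ± 7.42 CPM) and Tgfbr2 (174 ± 41.5 against 151 ± 24.6 CPM) for transforming growth factor beta, and Igf1r (102 ± 25.7 against 87.2 ± 9.65 CPM) and Insr (33.1 ± 15.3 against 37.2 ± 7.99 CPM) for insulin-like growth factor and insulin. Related receptors did not follow them: Igf2r, which overlaps Airn (22.7 ± 10.1 against 152 ± 31.5 CPM, log2 fold change -2.75), and Acvrl1, which overlaps Gm16031 (15.7 ± 5.26 against 79.9 ± 17.8 CPM, log2 fold change -2.34), were higher in NG2-dsRed+ cells without overlap of the groups. Endothelial receptors such as Kdr (39.9 ± 25.2 against 334 ± 132 CPM, log2 fold change -3.07) were higher in NG2-dsRed+ cells, with the endothelial markers.

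Potassium channels were called on both sides, within each of the subtypes named here. Of 42 channel genes tested (of 93 listed) 14 were higher in PSCs and 20 in NG2-dsRed+ cells. The delayed rectifiers Kcna2, at 263 to 740.5 CPM (median 622) in PSCs and 4.94 to 15.0 CPM (median 10.4) in NG2-dsRed+ cells, and Kcna1, at 302 to 474 CPM (median 370.5) and 2.93 to 26.4 CPM (median 5.43), were separated without overlap. Kcna6 had 115 ± 40.4 against 2.07 ± 0.872 CPM, log2 fold change 5.78. Their relative Kcna5, a channel of arterial smooth muscle, was the reverse (8.69 ± 4.79 against 83.8 ± 41.1 CPM, log2 fold change -3.27). Among calcium-activated channels, Kcnn2 (41.1 ± 16.8 against 0.403 ± 0.437 CPM, log2 fold change 6.61), Kcnn4 (27.1 ± 15.3 against 1.80 ± 1.47 CPM, log2 fold change 3.90) and the accessory subunit Kcnmb4 (56.5 ± 28.4 against 1.74 ± 1.02 CPM, log2 fold change 5.00) were higher in PSCs, whereas Kcnma1, the pore of the large-conductance channel (2.83 ± 1.79 against 21.1 ± 8.70 CPM, log2 fold change -2.90), and its smooth muscle subunit Kcnmb1 (3.06 ± 2.44 against 14.1 ± 6.10 CPM, log2 fold change -2.19) were higher in NG2-dsRed+ cells. Inward rectifiers were likewise on both sides, with Kcnj10 in PSCs and Kcnj8 and Kcnj2 (1.43 ± 0.752 against 21.2 ± 6.28 CPM, log2 fold change -3.87) in NG2-dsRed+ cells.

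Solute carriers, the largest family described (207 tested), had 32 members higher in PSCs (15.5%, against 20.9% of all genes tested). In NG2-dsRed+ cells 71 were higher (34.3% against 23.1%). Of the 207, 66 were shown to differ by less than 2-fold, as were 36.1% of all genes tested. Slc44a1, a choline transporter, had 467 ± 206 against 99.5 ± 16.3 CPM, log2 fold change 2.23. Slc27a1, a fatty acid transporter, had 78.3 ± 59.2 against 14.7 ± 2.55 CPM, log2 fold change 2.41. Slc8a3, a sodium-calcium exchanger, had 30.6 ± 9.30 against 0.679 ± 0.672 CPM, log2 fold change 5.41, and none of these 3 genes of the PSC side had overlapping groups. On the other side Slc4a8, a sodium-coupled bicarbonate transporter, had 2.64 ± 2.18 against 56.5 ± 36.9 CPM, log2 fold change -4.38. Slc24a3, a potassium-dependent sodium-calcium exchanger, had 2.54 ± 1.35 against 50.4 ± 6.40 CPM, log2 fold change -4.32, and Slc2a4, the insulin-regulated glucose transporter, 2.70 ± 1.23 against 29.1 ± 12.3 CPM, log2 fold change -3.44.

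Positional and lineage transcription factor families differed in their balance. Hox genes, which record position along the body axis, had 0 members higher in PSCs and 16 of 25 higher in NG2-dsRed+ cells (median log2 fold change -1.70), among them Hoxa9 (0.548 ± 0.596 against 11.8 ± 2.01 CPM, log2 fold change -4.38) and Hoxa5 (1.40 ± 0.773 against 15.1 ± 4.81 CPM, log2 fold change -3.41). In the B cluster Hoxb5 (2.00 ± 1.61 against 5.85 ± 1.76 CPM, log2 fold change -1.53) was called and no other tested gene was. Hoxd8 (23.9 ± 2.33 against 26.4 ± 5.03 CPM) was shown to differ by less than 2-fold. Tbx genes were higher in NG2-dsRed+ cells for 5 of 6, Tbx2 (22.6 ± 5.98 against 133 ± 33.9 CPM, log2 fold change -2.55) being an example, and Tbx4 was higher in PSCs (4.40 ± 3.81 against 0.831 ± 0.543 CPM, log2 fold change 2.38). Sox genes were evenly divided (6 and 6 of 13): Sox4 (202 ± 72.5 against 62.9 ± 5.10 CPM, log2 fold change 1.68) and Sox6 (110.5 ± 27.6 against 18.5 ± 4.60 CPM, log2 fold change 2.58) joined Sox10 and Sox2 in PSCs. The endothelial factors Sox17 (10.3 ± 8.89 against 88.8 ± 35.8 CPM, log2 fold change -3.12) and Sox18 (11.7 ± 7.93 against 90.1 ± 33.1 CPM, log2 fold change -2.95) were on the other side. Fox genes were higher in PSCs for 5 and in NG2-dsRed+ cells for 11 of 21. Foxd3 was on the PSC side. Foxc1 (5.20 ± 3.32 against 42.6 ± 8.52 CPM, log2 fold change -3.02) and Foxs1, given with the pericyte genes above, were on the other side.

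Other signalling and adhesion families followed. Of 14 Rgs genes 9 were higher in NG2-dsRed+ cells, with Rgs5 and Rgs4 (9.31 ± 4.11 against 331 ± 116 CPM, log2 fold change -5.16) far ahead of the rest in fold change, and 1, Rgs2, in PSCs. Adhesion G protein-coupled receptors had 5 members higher in PSCs and 8 in NG2-dsRed+ cells of 18. Adgrl3, a latrophilin (151 ± 52.5 against 3.70 ± 1.35 CPM, log2 fold change 5.34), and Adgrb3 (9.94 ± 3.25 against 0.340 ± 0.384 CPM, log2 fold change 4.82) were among the former and Adgrf5, an endothelial receptor (89.8 ± 47.7 against 621 ± 192 CPM, log2 fold change -2.79), among the latter. Adgrg6, which starts myelination in Schwann cells, was higher in PSCs (126 ± 41.6 against 38.4 ± 7.29 CPM, log2 fold change 1.72). Of 59 cadherins and protocadherins 15 were higher in PSCs (25.4%, against 20.9% of all genes tested) and 9 in NG2-dsRed+ cells (15.3% against 23.1%), so most were not called. Pcdh20 (22.4 ± 17.0 against 0.186 ± 0.199 CPM, log2 fold change 6.82) and Pcdh9 (44.8 ± 7.17 against 2.58 ± 0.867 CPM, log2 fold change 4.11) were 2 of the PSC side, and Cdh13 (31.4 ± 14.2 against 194 ± 43.3 CPM, log2 fold change -2.62) and Pcdh19 (15.6 ± 6.22 against 124 ± 29.4 CPM, log2 fold change -2.99) of the other.

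Proliferation genes were higher in PSCs. Of 32 cell cycle genes tested 28 were higher in PSCs and 0 in NG2-dsRed+ cells (median log2 fold change 1.96), including all 17 genes tested of the G2 and M phases and 11 of 15 of the S phase. Top2a, the topoisomerase of dividing cells, was at 71.2 to 486 CPM (median 170.1) in PSCs and 2.10 to 93.8 CPM (median 20.1) in NG2-dsRed+ cells, with overlap (log2 fold change 2.86, standard error 0.53, adjusted p = 5.84e-05). Mki67, which is absent from resting cells, was at 32.4 to 262 CPM (median 142) and 5.26 to 65.2 CPM (median 13.2), with overlap too (log2 fold change 2.60, standard error 0.49, adjusted p = 6.19e-05). Cenpf (67.5 ± 34.4 against 9.30 ± 7.84 CPM, log2 fold change 2.86) and Ube2c (34.1 ± 15.4 against 5.94 ± 3.70 CPM, log2 fold change 2.51) were separated fully. Pcna (58.5 ± 18.1 against 65.0 ± 16.9 CPM) and Rrm1 (44.5 ± 13.7 against 34.7 ± 7.32 CPM), which also serve DNA repair, were shown to differ by less than 2-fold. Summed over the list, levels were 599 to 2012 CPM (median 1025) in PSC libraries and 219 to 577 CPM (median 281) in NG2-dsRed+ libraries, and so they did not overlap.

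Of 23 glycolytic and lactate genes 15 were higher in NG2-dsRed+ cells and 3 in PSCs (median log2 fold change -0.99). Ldha, which makes lactate, was higher in NG2-dsRed+ cells (143 ± 27.0 against 283 ± 41.9 CPM, log2 fold change -0.99), and Ldhb, which favours the return to pyruvate, in PSCs (148 ± 102 against 45.1 ± 16.2 CPM, log2 fold change 1.71), each without overlap. Slc16a1, the monocarboxylate carrier of glia, was higher in PSCs (63.8 ± 23.9 against 27.1 ± 9.10 CPM, log2 fold change 1.23), and Aldoc, the aldolase of neural tissue, too (6.81 ± 6.24 against 0.152 ± 0.217 CPM, log2 fold change 5.25). Of 24 cholesterol synthesis genes 4 were higher in PSCs, 3 in NG2-dsRed+ cells, 11 were shown to differ by less than 2-fold and 7 were not resolved. Fatty acid genes had 7 of 17 higher in PSCs (41.2%, against 20.9% of all genes tested) and 4 in NG2-dsRed+ cells (23.5%, near the 23.1% of all genes). Scd2, the desaturase of neural tissue, was higher in PSCs (293 ± 76.9 against 108 ± 17.1 CPM, log2 fold change 1.44). Fads3 was higher in NG2-dsRed+ cells (11.0 ± 7.51 against 60.8 ± 15.0 CPM, log2 fold change -2.48).

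Counts for housekeeping families depended on the libraries and the fit. Of 82 ribosomal protein genes 2 were higher in PSCs and 1 in NG2-dsRed+ cells, and 45 were shown to differ by less than 2-fold. Respiratory chain genes encoded in the nucleus had 17 of 78 higher in PSCs (21.8%, near the 20.9% of all genes tested). In NG2-dsRed+ cells 7 were higher (8.97% against 23.1%, median log2 fold change 0.31). Both medians turned from positive to negative once the fit took in how much of each library fell on Lars2, Gm23935 and Gm15564, an alternative added after the values were seen, in which 0 ribosomal protein genes were higher in PSCs and 25 in NG2-dsRed+ cells, and 2 and 17 respiratory chain genes. With each library left out in turn, 1 to 16 ribosomal protein genes (16 without PSC library 18, 11 without NG2-dsRed+ library 28) and 5 to 29 respiratory chain genes (5 without PSC library 36, 29 without NG2-dsRed+ library 28) were higher in PSCs.

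Immediate early genes, which are known to rise during tissue dissociation, were higher in NG2-dsRed+ cells for 16 of 22 and in PSCs for 1 (median log2 fold change -0.95). Of 7 heat shock genes, known for the same, 2 were higher in NG2-dsRed+ cells, near the 23.1% of all genes, and 6 were shown to differ by less than 2-fold. Fos (2929 ± 1996 against 3318 ± 658 CPM) and Hspa1a (529 ± 182 against 539 ± 172 CPM, with reads that its near-identical copy Hspa1b may share) were shown to differ by less than 2-fold, and Nr4a3 (12.1 ± 4.65 against 94.5 ± 30.9 CPM, log2 fold change -2.96) and Fosl2 (59.1 ± 14.7 against 282 ± 63.5 CPM, log2 fold change -2.25) were higher in NG2-dsRed+ cells. Of muscle fibre genes 4 of 16 were higher in PSCs, close to the 20.9% of all genes tested, and the list summed highest in PSC library 18.

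Neuronal genes were mostly under the filter on low counts in both populations, with 5 of 18 tested. Tubb3, which encodes the tubulin seen by the Tuj1 antibody and would mark the precursor cells described in the NG2-dsRed+ sort, was at 0 to 1.98 CPM (median 1.09) in NG2-dsRed+ cells and 0 to 3.53 CPM (median 1.36) in PSCs (95% interval of the log2 fold change -0.71 to 1.57). It had 70 counts over 9 NG2-dsRed+ libraries, so a marker of that population was close to 0 at this depth. Stmn2, a tubulin-binding protein of growing neurites, was higher in NG2-dsRed+ cells, at 22.7 to 46.9 CPM (median 34.2) against 1.25 to 13.0 CPM (median 4.84) (log2 fold change -2.66, standard error 0.45, adjusted p = 1.52e-05). Map2, a dendritic microtubule protein, was higher in PSCs (94.4 ± 24.6 against 20.5 ± 4.88 CPM, log2 fold change 2.20).

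What the populations shared was tested as a difference under 2-fold. Besides the whole set of 5533 genes, 3287 of which had a mean of at least 20 CPM in both, a short set was taken by a rule: the 15 such genes with the highest ratio of the lower of both means over the mean in S100β-GFP+ cells. That ratio chose the set, so the low level in S100β-GFP+ cells is a description with no test. In those libraries the median sum was 37022 CPM for fibroblast markers and 7599 CPM for macrophage and leukocyte markers. For Schwann cell surface and cytoplasmic genes it was 1015 CPM. A low level there is therefore not a measure of the level in Schwann cells alone. Cspg4 belonged to the set, with a log2 fold change of 0.05 (95% interval -0.41 to 0.52, adjusted p = 0.000855 by the test against 2-fold in edgeR). In S100β-GFP+ libraries it was at 34.5 to 148 CPM (median 53.5). The sort took both compared groups with the Cspg4 reporter and the S100β-GFP+ cells without it. The values of Cspg4 are therefore a check of the sort and not a finding.

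Atp1b2, a beta subunit of the sodium pump that in brain acts as a glial adhesion molecule, was at 105 to 384 CPM (median 159) in PSCs, 109 to 272 CPM (median 194) in NG2-dsRed+ cells and 3.75 to 32.9 CPM (median 12.1) in S100β-GFP+ cells (95% interval of the log2 fold change -0.63 to 0.69). It lost the call of a difference under 2-fold once the fit took in the share of Lars2, Gm23935 and Gm15564.

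Matrix and its receptors formed another part. Itga1, an integrin for collagen and laminin, was at 404 to 884 CPM (median 688) in PSCs, 544 to 795 CPM (median 651) in NG2-dsRed+ cells and 23.8 to 252 CPM (median 73.0) in S100β-GFP+ cells. Col18a1, a basement membrane collagen, was at 112 to 180.5 CPM (median 122), 83.7 to 235 CPM (median 131) and 23.8 to 58.6 CPM (median 32.6). Tinagl1, a matrix protein that binds integrins, was at 91.0 to 577 CPM (median 326), 170.5 to 469 CPM (median 328) and 11.0 to 121 CPM (median 28.7). It lost the call in 2 alternatives, among them the fit without PSC library 34. The ranges of PSCs and NG2-dsRed+ cells overlapped for all 3 genes.

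Signalling genes of the set included Nr2f2, a nuclear receptor of veins and mesenchyme, at 139.9 to 243 CPM (median 162), 145 to 224 CPM (median 174) and 15.8 to 50.4 CPM (median 40.3) in the same order (95% interval of the log2 fold change -0.39 to 0.35). Cdk6, a kinase of the G1 phase, was at 28.2 to 104 CPM (median 77.8), 60.0 to 91.0 CPM (median 80.3) and 13.1 to 23.4 CPM (median 18.6) (-0.42 to 0.24). Ptch1, the hedgehog receptor, had 60.4 ± 16.9 against 71.6 ± 20.2 CPM, Sort1, the sortilin that carries neurotrophin precursors, 75.3 ± 20.4 against 86.4 ± 25.3 CPM, and Pde1a, a calmodulin-dependent phosphodiesterase, 33.0 ± 10.8 against 39.3 ± 7.01 CPM. Gcnt2 (61.0 ± 24.9 against 73.9 ± 15.6 CPM) and Ccdc141 (28.4 ± 8.61 against 34.8 ± 8.47 CPM) were in the set as well, and so were Laptm4b (114 ± 23.9 against 78.2 ± 19.7 CPM) and Vstm4 (51.8 ± 16.6 against 70.4 ± 13.3 CPM), which both differed significantly (log2 fold changes 0.55 and -0.44) and by less than 2-fold. The difference of Vstm4 lost its call without any of 12 libraries in turn, and that of Laptm4b with none, while its call under 2-fold was lost without any of 6.

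**Figure D5:**
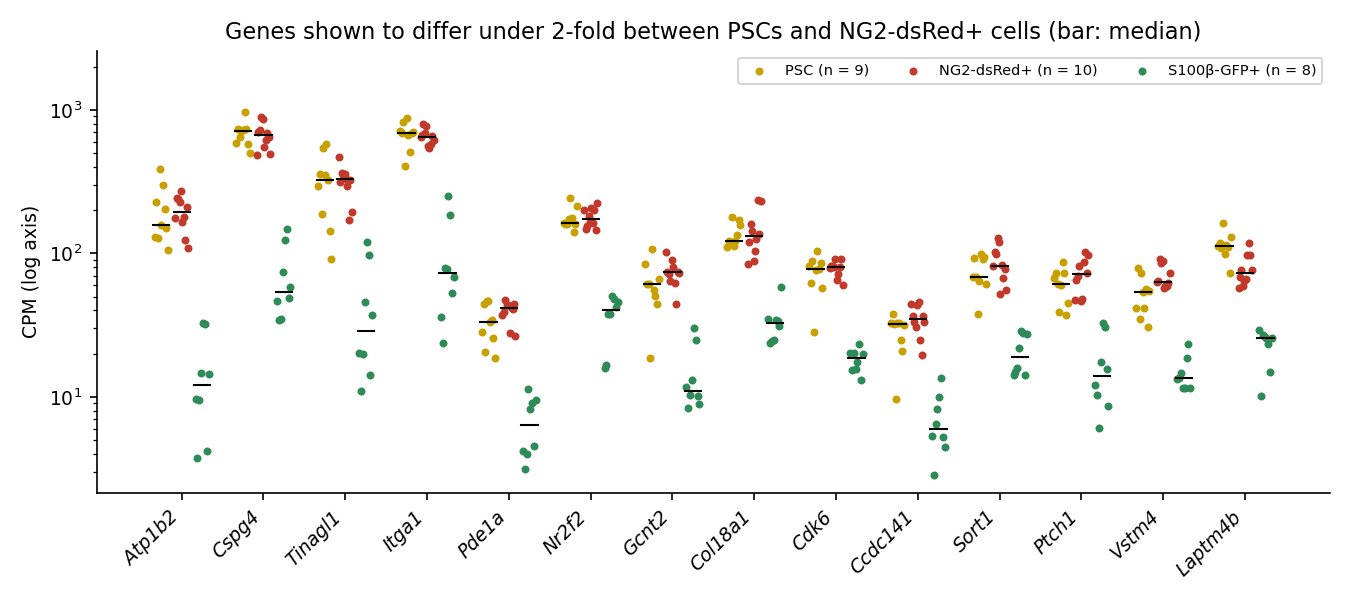
CPM (log axis) in each library of 14 of the 15 genes shown to differ under 2-fold between PSCs and NG2-dsRed+ cells and chosen for a low level in S100β-GFP+ cells, with 1 point per library and a bar at the median. The points of PSCs and NG2-dsRed+ cells lie side by side for each gene, for Cspg4 between 487 and 965 CPM, and those of S100β-GFP+ cells lie lower by the rule of choice.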

How the data were processed

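RNA-seq libraries of S100β-GFP+;NG2-dsRed+ PSCs (n = 9) and NG2-dsRed+ cells (n = 10), each from a single mouse, were compared. The RNA of these few cells was amplified with SMART-Seq v4. The authors aligned trimmed reads with HISAT2 (GRCm38 per the labels' processing notes), after ea-utils and Btrim, and obtained counts per gene from HTSeq. The deposited values are raw whole-number counts. Counts of overlapping genes are uncertain, since the strand setting and the versions of these tools were not given in the sources used here. Each of the 27 columns was matched to its sample through the library number. The other libraries of the 36 have no column and were not analysed here. The study judged failed samples by eye on pairs plots and left them out. It kept fewer S100β-GFP+ replicates than the 8 columns used here, so 8 may include a library that the study left out. No pair of columns within a cell type agreed within sampling noise (lowest chi-square over its degrees of freedom 8.925).

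Counts were analysed with edgeR 4.0.16 (R 4.3.3) by TMM, filterByExpr (minimum count 10) and 1 quasi-likelihood fit of the PSC, NG2-dsRed+ and S100β-GFP+ libraries, so that they share 1 estimate of the spread, with Benjamini-Hochberg adjustment over 15330 genes at 0.05. Differences under 2-fold were tested with a pair of one-sided quasi-likelihood tests against 2-fold in either direction, adjusted in the same way. Gene positions and overlaps were read from GENCODE M21 (GRCm38), where 52403 of 52636 identifiers were found, and promoters from RefSeq (GRCm38.p6), by symbol.

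The comparison, gene lists and rules were chosen with earlier results of these data known, and lists are described by counts and medians with no test of the list. Genes named are Cspg4 and S100b, the 15 largest differences in each direction among genes past the threshold with no overlap of the groups and a mean of at least 20 CPM in the higher group, the 15 shared genes defined in the text, members of the lists and families, and genes that overlap these. The choice of members to print singly was made with their values in view, as was that of Lars2, Gm23935 and Gm15564, which the rule does not cover. Some genes that the rule names are not reported here.

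On simulated counts with 200 changed genes (PSCs minus NG2-dsRed+ cells, 15053 genes tested) the edgeR test recovered 45.5% of genes changed 2-fold and 82.8% of those changed 4-fold, with 5.93% false calls. Of unchanged genes 69.9% were shown to differ under 2-fold, and of genes changed 2-fold 1.01%. In the data far more genes differed (44% of those tested), and the simulation held no library set apart. These rates need not hold for the data. Copies made by PCR count as separate molecules here. Alternatives were DESeq2 1.42.0 (its Wald test, and its size factors in edgeR), limma 3.58.1 voom with quality weights, no filter, a mean of at least 5 counts, only the compared libraries, and leaving out each library. Terms for the share of Lars2, Gm23935 and Gm15564 in the counts, and for sex (read from Xist and Y genes, 5 female and 4 male PSC libraries, 5 and 5 NG2-dsRed+ libraries), were added after seeing the data.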

Additional observations from a re-analysis of the deposited data

Results flagged for a closer look

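In 56 groups of 9 or 10 libraries (Cspg4, S100b and the summed CPM of each gene list), a library was called apart when the gap to its nearest neighbour took an unusual share of the group's range by Dixon's criterion. Chance flags about 1 in 20 groups, and 13 were flagged, each for its highest library.

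PSC library 18, which had counts on the fewest genes, accounted for 6 of these. Its summed levels were 10258 CPM for Schwann lineage transcription factors (next 5767), 5171 CPM for the contractile apparatus (next 3092), 573 CPM for macrophages and leukocytes (next 289.9), 2367 CPM for muscle fibres (next 1312), 23138 CPM for immediate early and heat shock genes (next 12916) and 1849 CPM for glycolysis and lactate (next 1324).

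PSC library 31 had 5024 CPM on genes of tenocytes and chondrocytes, where the next PSC library had 126 CPM. Of that list 5 of 10 tested genes were higher in PSCs and 2 in NG2-dsRed+ cells, and without library 31 none were higher in PSCs.

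NG2-dsRed+ library 28 was highest for S100b (17.8 CPM, next 10.1), for Schwann cell surface and cytoplasm genes (5471 CPM, next 2473) and for glycolysis and lactate (3190.4 CPM, next 2217). NG2-dsRed+ library 2 had 11623 CPM on erythroid genes (next 2152), library 30 had 37.9 CPM on melanocyte genes (next 26.1), and library 35 had 2940.0 CPM on growth factors (next 2230.1).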

How the results depend on the processing

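Each count of genes stayed within 1.5 times its value in every alternative. The number that differed ranged from 6045 (only the compared libraries, 13836 genes tested) to 8264 (limma-voom), genes higher in PSCs from 3046 to 3751, genes higher in NG2-dsRed+ cells from 2999 to 4525, and genes under 2-fold from 4343 (no filter, 44705 genes tested) to 6049 (the share of Lars2, Gm23935 and Gm15564 as a term). With each library left out in turn these counts were 6315 to 7412, 2958 to 3880, 3152 to 3572 and 5116 to 6054. Without PSC library 18, 7412 genes differed.

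Of 215 genes named and tested 204 kept their call, and genes that differed their direction, in every alternative that gave them a value (27 alternatives, with 184 to 215 of these genes each, since DESeq2 and limma-voom gave no test against 2-fold and fewer genes passed the filter with only the compared libraries). Col2a1 and Acan turned: with each library left out in turn their log2 fold changes were -1.13 to 6.09 and -2.25 to 3.44, the lowest without PSC library 31, by DESeq2 -0.98 and -2.01, and by limma-voom -1.15 and -3.02, and the cause beyond that library was not tested. Calls of Srf, Vstm4, Gap43, Atp1b2 and Tinagl1 were lost in at least 1 alternative, and Drp2, Apod, Mcam and Hes1 passed the threshold in at least 1. Medians of the lists kept their sign except for neuronal, satellite cell, tenocyte and chondrocyte, erythroid, Sox, cadherin, respiratory chain and ribosomal protein genes.

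No paired analysis was possible because each library number occurs in 1 cell type and the labels do not link libraries to mice. At these depths levels near 1 CPM rest on few counts, and changes of 2-fold were recovered less often than changes of 4-fold on simulated counts.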
